A study of Mus musculus with 223 samples.

Results

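Lhx6, Sst, Sox6, Nkx2-1, Satb1, Pvalb and Lhx8, 7 genes that mark interneurons (INs) born in the medial ganglionic eminence (MGE), were followed in single Htr3a-GFP+ cells of the developing mouse cortex. They were chosen by name for their known role, and are 7 of the 43629 genes of the count table. The study asked which kinds of Htr3a-GFP+ IN exist while the cortex is being built, and it sorted cells from a reporter line that mainly labels INs of the caudal ganglionic eminence (CGE). The table holds 82 cells at embryonic day 18 (E18), 66 cells at postnatal day 2 (P2) and 75 cells at P5. The authors assigned each postnatal cell to type 1, 2 or 3, with 22, 31 and 13 cells at P2 and 34, 19 and 22 cells at P5, and gave E18 cells no type. All cells came from C57BL/6 mice of both sexes that carry an enhanced GFP transgene under Htr3a regulatory sequences, so the reporter, and not the Htr3a transcript, set which cells were sorted. No other genotype or treatment was compared.

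In the ventral forebrain, hedgehog signalling maintains Nkx2-1, the homeodomain factor that specifies the MGE. Nkx2-1 switches on Lhx6, a LIM homeodomain factor that most MGE-derived cortical INs keep as they migrate. Lhx6 acts upstream of Sox6 and Satb1, factors needed for INs to take up their position and to mature, and these cells later make the neuropeptide somatostatin (Sst) or the calcium buffer parvalbumin (Pvalb). Lhx8, a relative of Lhx6, belongs to MGE cells that become cholinergic neurons of the basal forebrain. INs of the CGE instead use factors such as Nr2f2 (COUPTFII), Prox1 and Sp8, and many of them express the serotonin receptor gene Htr3a. The paper also places Sp8 in progenitors of the lateral ganglionic eminence and finds it enriched in type 1 cells.

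Sst and Lhx6, the peptide and the factor on which the results below turn, begin at the 2 promoter windows printed here, each covering 250 bases before a RefSeq transcription start in GRCm38.p6, on the minus strand and 5′ to 3′. Capitals mark matches, on either strand, to TGACGTCA (a cyclic AMP response element), TGACTCA (an AP-1 element) and TAAT (the core letters bound by many homeodomain proteins).
Sst, chr16:23890845-23891094: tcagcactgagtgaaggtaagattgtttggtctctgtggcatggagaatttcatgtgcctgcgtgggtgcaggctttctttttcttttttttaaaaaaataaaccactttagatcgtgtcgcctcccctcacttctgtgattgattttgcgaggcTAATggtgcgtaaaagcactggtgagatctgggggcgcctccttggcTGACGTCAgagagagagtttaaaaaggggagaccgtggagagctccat
Lhx6, chr2:36105409-36105658: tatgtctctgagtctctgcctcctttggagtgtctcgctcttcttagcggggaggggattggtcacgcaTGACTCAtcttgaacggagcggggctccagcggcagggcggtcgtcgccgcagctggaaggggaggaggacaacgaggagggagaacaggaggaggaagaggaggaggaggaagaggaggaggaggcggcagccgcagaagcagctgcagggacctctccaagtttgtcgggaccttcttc
The Sst window held TGACGTCA once, with its first base at position -48 from the start, and TAAT once. The Lhx6 window, that of the outermost of its 3 RefSeq starts, held TGACTCA once, with its first base at position -181. Of 32851 RefSeq windows of the same length, 1.55% held TGACGTCA, 4.46% held TGACTCA and 54.9% held TAAT on either strand. Matches are a description of letters. They do not show that a factor bound there, and the motifs were chosen after the sequences had been seen.

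All 7 genes lie on the minus strand of GRCm38. Lhx6 (ENSMUSG00000026890) is at chr2:36081953-36105408, Sst (ENSMUSG00000004366) at chr16:23889573-23890958, Sox6 (ENSMUSG00000051910) at chr7:115470872-116038796 and Satb1 (ENSMUSG00000023927) at chr17:51736187-51833290. Nkx2-1 (ENSMUSG00000001496) is at chr12:56531958-56536908, Pvalb (ENSMUSG00000005716) at chr15:78191114-78206400 and Lhx8 (ENSMUSG00000096225) at chr3:154306294-154330659. Values are read pairs over all annotated exons. Sox6 overlaps 2 annotated genes of the opposite strand and Nkx2-1 overlaps 1, Lhx6 overlaps 1 of its own strand, and Satb1 overlaps 6 annotated transcripts, of which 1 is on the opposite strand, so reads of such neighbours cannot be fully told apart from theirs. The Sst, Pvalb and Lhx8 genes overlap no other annotated gene.

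The unit is RPM, the read pairs of a gene scaled to the total of mapped read pairs of its cell. Cells had 3707601 to 15840130 mapped read pairs with a median of 9463033, so the level of 10 RPM taken as expression stood for at least 38 read pairs in each cell, and a median of 2245 genes passed it per cell. Each age was a pool of several brains and cells are not replicates, so each age is 1 sample, differences between ages have no replicate check, and no test was made. Shares of cells have exact 95% binomial intervals and pooled RPM has exact 95% Poisson intervals, which cover counting error only. Where no cell passed, the share that this allows is given as 3 cells of the total, slightly below the exact upper bound. Every P2 cell belongs to library set 353, while E18 and P5 cells both fall in sets 383, 392 and 393, and what holds for P2 may therefore belong to the age or to set 353, which cannot be told apart.

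At E18, 4 of the 7 genes were expressed in a large share of the sorted cells. Sst was above 10 RPM in 52 of 82 cells (63.4%, 95% interval 52 to 73.8), Satb1 in 46 (56.1%, 44.7 to 67.1), Lhx6 in 40 (48.8%, 37.6 to 60.1) and Sox6 in 30 (36.6%, 26.2 to 47.95). The intervals of neighbours in this order overlap, so their order is not fixed beyond counting error, while those of Sst and Sox6 do not overlap. No E18 cell passed 10 RPM for Nkx2-1, which allows a share of up to 3.66%. Lhx8 and Pvalb had 0 read pairs in every cell of the 3 ages, which allows a share of cells of up to 3.66% at E18.

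Lhx6 ran from 0 to 1804 RPM over the 82 cells with a median of 8.12 RPM, and no cell lay between 8.44 and 17.9 RPM. Sst ran from 0 to 3401 RPM with a median of 55.8 RPM, and no cell lay between 1.72 and 10.7 RPM. The 10 RPM line thus fell in a gap for both genes, while Satb1 had cells at 9.83 and at 13.4 RPM on either side of it. Satb1 ran from 0 to 2150 RPM with a median of 18.7 RPM, and Sox6 from 0 to 992.5 RPM with a median of 0.109 RPM. Among the cells above the line, the median was 317 RPM for Sst, 228 RPM for Lhx6, 129.4 RPM for Sox6 and 113.3 RPM for Satb1. Nkx2-1 did not exceed 1.37 RPM in any E18 cell.

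Summed over the 82 E18 cells, Sst stood at 333 RPM (332 to 334), Lhx6 at 192.6 RPM (191.6 to 193.6), Satb1 at 139.9 RPM (139.1 to 140.8) and Sox6 at 70.5 RPM (69.9 to 71.05). Levels of different genes compare only per length. Per kilobase of exon, the pooled E18 level was 462 RPM for Sst, a gene with 721 bases of exon, 40.1 for Lhx6, 7.35 for Satb1 and 4.75 for Sox6. Per length, the peptide transcript was thus far above the factors, and the Poisson intervals of the 4 pooled levels do not overlap.

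**Figure D1:**
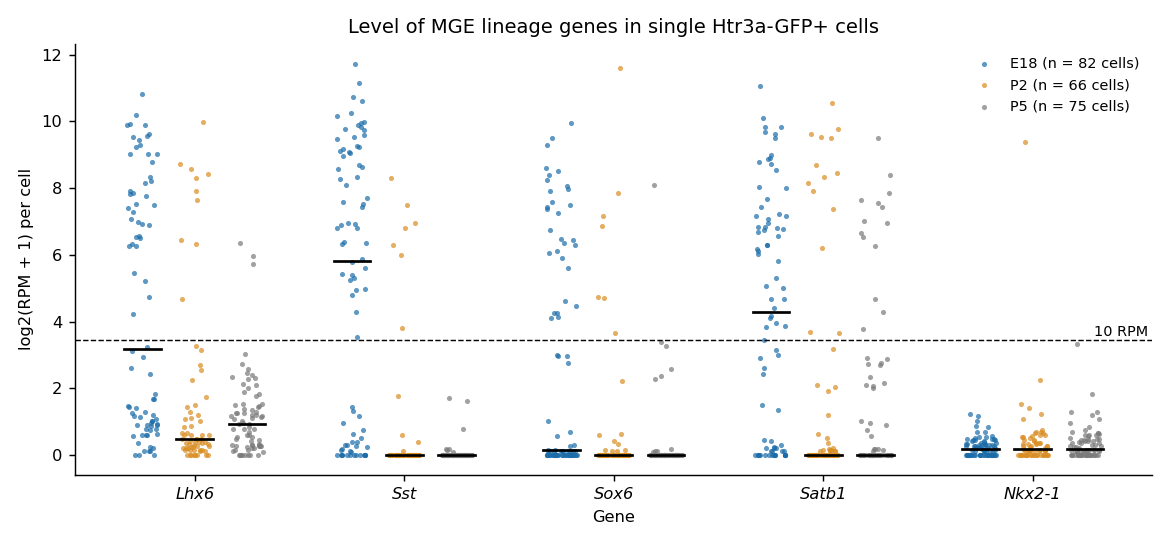
Level of 5 genes in each cell, as log2(RPM + 1), for E18 (82 cells), P2 (66 cells) and P5 (75 cells). Points are cells, bars are medians and the dashed line is 10 RPM. Lhx6, Sst, Sox6 and Satb1 each have a band of high E18 cells that thins out at P2 and, except for Satb1, nearly vanishes at P5.

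After birth the same genes were above 10 RPM in few cells. Lhx6 passed 10 RPM in 10 of the 66 P2 cells (15.2%, 7.51 to 26.1) and in 3 of the 75 P5 cells (4%, 0.833 to 11.2). Its pooled level was 192.6 RPM at E18, 48.2 RPM (47.6 to 48.7) at P2 and 4.14 RPM (3.99 to 4.29) at P5. Among the cells that did express it, the median was 277 RPM at P2, close to the 228 RPM of E18, and 61.1 RPM in the 3 cells of P5. The shares at E18 and at P2 do not overlap in their intervals, and those at P2 and P5 do. At lower limits more cells count, and Lhx6 was above 1 RPM in 72% of E18, 34.8% of P2 and 48% of P5 cells, which turns the order of P2 and P5, and had at least 1 read pair in 79 of 82, 58 of 66 and 67 of 75.

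Sst showed the widest difference in share of cells between E18 and P5. It passed 10 RPM in 7 of the 66 P2 cells (10.6%, 4.37 to 20.6) and in none of the 75 P5 cells, which allows a share of up to 4%. The pooled level was 14.3 RPM (14.0 to 14.7) at P2 and 0.0696 RPM (0.0515 to 0.0920) at P5, from 49 read pairs in all. The highest P5 cell held 2.29 RPM.

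Sox6 passed the level in 7 of the 66 P2 cells (10.6%, 4.37 to 20.6) and in 1 of the 75 P5 cells (1.33%, 0.0338 to 7.21). Its pooled P2 level of 60.7 RPM rested on a single cell at 3087 RPM and was 9.65 RPM without it, and the P5 level of 3.61 RPM rested on a single cell at 273 RPM and was 0.4998 RPM without it. The pooled Sox6 level was thus near that of E18 at P2, while the share of cells that expressed it was lower, with intervals that do not overlap. Satb1, which is not particular to the MGE lineage and is also made by other forebrain neurons, kept the largest postnatal share, with 14 of the 66 P2 cells (21.2%, 12.1 to 33.02) and 14 of the 75 P5 cells (18.7%, 10.6 to 29.3). Its pooled level was 95.7 RPM (94.9 to 96.5) at P2 and 32.1 RPM (31.7 to 32.5) at P5.

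Nkx2-1, the factor at the head of the lineage, was above 10 RPM in a single cell of all ages, a type 3 cell at P2 with 673 RPM. The next highest cell of any age held 8.98 RPM. That P2 cell also held 12.9 RPM of Sst and 1460 RPM of Maf, with 1.84 RPM of Lhx6 and 0.433 RPM of Htr3a.

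To compare ages, each gene's read pairs were summed over the cells of an age, and the ratio of the summed levels was taken on the log2 scale after adding 1 RPM to each. The P5 to E18 ratio was -5.23 for Lhx6, -3.95 for Sox6 and -2.09 for Satb1, each lower past 2-fold and each at 1 RPM or more at both ages. Among all genes with a pooled level of at least 1 RPM at either age, 24.1% were lower past 2-fold from E18 to P5, and the median ratio over all of them was -0.16. Sst, at -8.29, entered this set through E18 alone and so had to differ, and Nkx2-1, Lhx8 and Pvalb were under 1 RPM at both ages. From E18 to P2, the ratio was -1.98 for Lhx6 and -4.44 for Sst, and within 2-fold for Sox6 (-0.21) and Satb1 (-0.54), where 26.3% of all genes were lower past 2-fold. Without the highest cell of each age, Sox6 was also lower at P2, at -2.53. Nkx2-1 had a P2 to E18 ratio of 3.24 that came from its single P2 cell. From P2 to P5, where 21.5% of genes were lower past 2-fold, the ratio was -3.26 for Lhx6, -3.74 for Sox6 and -1.55 for Satb1. Sst (-3.84) and Nkx2-1 (-3.01) entered there through P2 alone. The comparisons share cells of an age and are not independent of each other, and since P5 cortices were dissociated with the same enzyme in another medium, at another temperature and for another time than E18 and P2 cortices, age and dissociation cannot be told apart at P5.

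Many E18 cells held more than 1 of the genes. Genes this common would meet in many cells even if independent of each other. The count expected from their separate shares was not computed. Of 82 cells, 12 expressed Lhx6, Sst, Sox6 and Satb1 together, 22 expressed exactly 3, 17 exactly 2, 20 exactly 1 and 11 none. At least 2 were found in 51 cells (62.2%, 50.8 to 72.7). The commonest combinations were all 4 genes and Lhx6 with Sst and Satb1, with 12 cells each, ahead of Satb1 alone with 8 and Sst alone with 7.

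Pairs of genes differed in how closely they met. Of the 40 Lhx6 cells, 30 also expressed Sst (75%), against 22 of the 42 cells without Lhx6 (52.4%). Of the 30 Sox6 cells, 26 expressed Sst (86.7%), whereas Sst was found without Sox6 in as many. Satb1 accompanied Lhx6 in 29 of 40 cells (72.5%) and was found in 17 of 42 cells without it (40.5%). Sox6 accompanied Lhx6 in 18 of 40 cells (45%) and stood in 12 of 42 without it (28.6%). Sst was thus not confined to cells above 10 RPM for Lhx6. Most E18 cells at or below that level still held Lhx6 read pairs, as 79 of all 82 had at least 1.

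**Figure D2:**
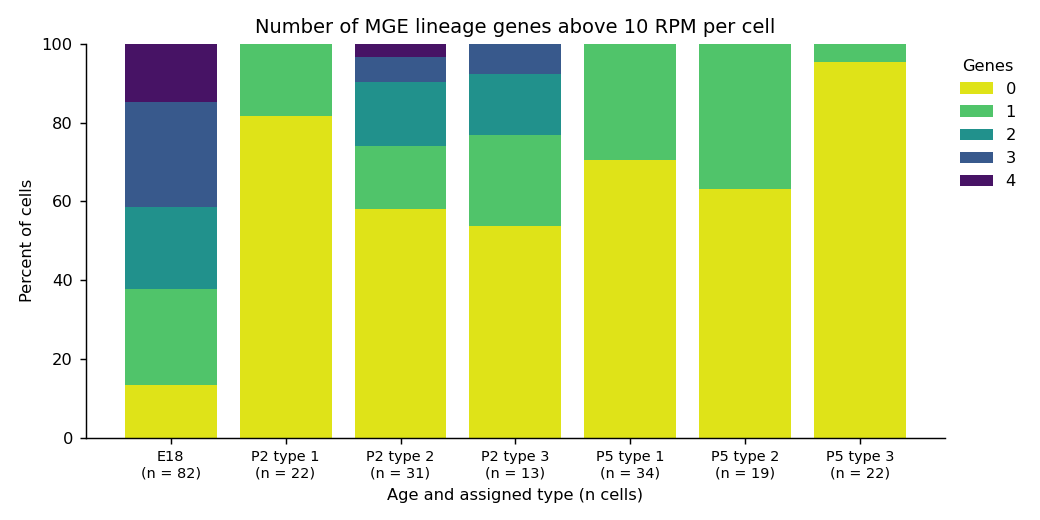
Percent of cells that expressed 0, 1, 2, 3 or 4 of the MGE lineage genes above 10 RPM, for E18 and for types 1, 2 and 3 at P2 and P5 (number of cells under each bar). The bars reach 2 or more genes in 51 of 82 cells at E18 and in 8 of 31 type 2 and 3 of 13 type 3 cells at P2, and in no type 1 cell and no P5 cell.

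At P2, 11 of 66 cells expressed at least 2 of the genes (16.7%, 8.62 to 27.9), 12 expressed 1 and 43 none. At P5, no cell of 75 expressed 2, which allows up to 4%, while 18 expressed exactly 1, which was Satb1 in 14 of them, Lhx6 in 3 and Sox6 in 1. The interval for E18 lies above those for both postnatal ages. Counted above 1 RPM, at least 2 genes stood in 78.05% of E18, 21.2% of P2 and 26.7% of P5 cells, so the order of P2 and P5 turned at this limit. Restricted to cells in which the Htr3a transcript itself was above 10 RPM, a restriction chosen after seeing the data, the counts were 36 of 62 at E18, 5 of 51 at P2 and 0 of 63 at P5.

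Among the types, which the authors assigned on these same expression values, the 11 P2 cells fell as 8 of 31 type 2 cells (25.8%, 11.9 to 44.6), 3 of 13 type 3 cells (23.1%, 5.04 to 53.8) and 0 of 22 type 1 cells, which allows up to 13.6%. The intervals of the 3 types overlap. Lhx6 followed the same order, with 8 of 31 cells and 84.1 RPM in type 2, 2 of 13 cells and 43.6 RPM in type 3, and 0 of 22 cells and 0.466 RPM in type 1, where the highest cell held 1.75 RPM. Without the highest cell of each, the Lhx6 level was 49.9 RPM in type 2 and 26.4 RPM in type 3, and 30.7 RPM over all P2 cells. The cell with most Lhx6 after birth, a type 2 cell at 1003 RPM, also held 736 RPM of Satb1, 78.3 RPM of Sst and 25.8 RPM of Sox6, and was the only postnatal cell with all 4 genes. The type 2 cell with 3087 RPM of Sox6 held 317 RPM of Sst, the highest Sst level after birth, and 7.81 RPM of Lhx6.

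The 3 Lhx6 cells of P5, at 51.6, 61.1 and 81.6 RPM, were 2 type 1 cells and 1 type 2 cell, held no read pair of Sst, Sox6 or Satb1, and carried 856 to 3997 RPM of Htr3a. Each of them expressed Sp8, at 847, 5534 and 15.2 RPM, and Nr2f2 was above 10 RPM in the cell at 61.1 RPM (16.8 RPM) and in the type 2 cell (1100 RPM), which also held 652 RPM of Prox1. Over all P5 cells, Sp8 was above 10 RPM in 63 of 75 and Nr2f2 in 46, so these genes do not set the 3 cells apart. Satb1 at P5 was found in 8 of 34 type 1 cells (23.5%), 5 of 19 type 2 cells (26.3%) and 1 of 22 type 3 cells (4.55%), with overlapping intervals.

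On the t-SNE map that the authors deposited, a projection of cells by the similarity of their transcriptomes, the E18 cells with these genes lay mostly among other E18 cells. Of the 51 E18 cells with at least 2 genes, 46 had E18 cells as most of their 5 nearest neighbours (90.2%, 78.6 to 96.7), against 13 of the 31 E18 cells with 0 or 1 gene (41.9%, 24.5 to 60.9). By number of genes, from 0 to 4, the counts were 4 of 11, 9 of 20, 15 of 17, 20 of 22 and 11 of 12. The widest step lay between 1 gene (45%, 23.1 to 68.5) and 2 genes (88.2%, 63.6 to 98.5), whose intervals overlap. Mostly E18 neighbours were also found for 6 of the 11 P2 cells with at least 2 genes (54.5%, 23.4 to 83.3) against 7 of the other 55 (12.7%, 5.27 to 24.5), and for 1 of the 75 P5 cells. The map was computed by the authors on these same counts and includes the members, so it is no independent measure.

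**Figure D3:**
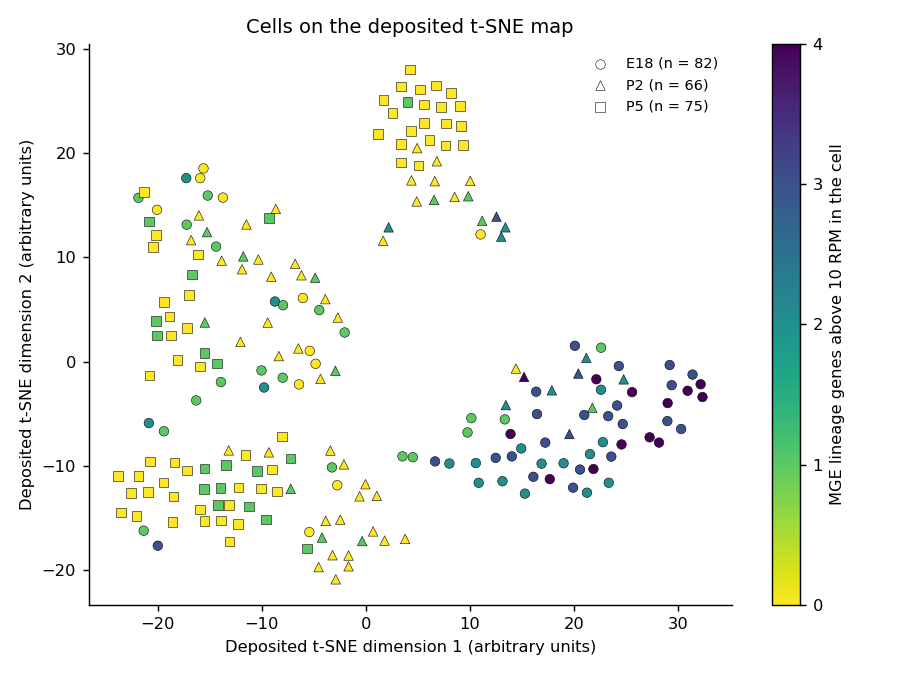
Each cell of the 3 ages at its deposited t-SNE coordinates (arbitrary units), with the shape giving the age and the colour the number of MGE lineage genes above 10 RPM. The dark group at the right holds most E18 cells with at least 2 genes and some P2 cells, and most E18 cells with 0 or 1 gene are mixed with postnatal cells at the left.

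The E18 cells with at least 2 of the genes also differed from the other E18 cells in genes outside the lineage list. Nr2f2 was expressed in 7 of 51 (13.7%, 5.70 to 26.3) against 18 of 31 (58.1%, 39.1 to 75.5), Sp8 in 3 (5.88%, 1.23 to 16.2) against 17 (54.8%, 36.03 to 72.7), and Adarb2, an RNA editing family gene that marks CGE-derived INs, in 3 (5.88%, 1.23 to 16.2) against 16 (51.6%, 33.1 to 69.9). None of these 3 pairs of intervals overlaps. The remaining CGE genes were shared more evenly, with overlapping intervals. Prox1 stood in 4 against 6 cells, Npas3 in 29 against 20, Reln in 27 against 11, Cnr1 in 25 against 18 and Nr2f1 in 23 against 19, and Vip in none.

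Htr3a, the gene behind the reporter, was detected above 10 RPM in 36 of the 51 cells (70.6%, 56.2 to 82.5) and in 26 of the other 31 (83.9%, 66.3 to 94.5). Its level differed more than its detection. The 51 cells ran from 0 to 3253 RPM with a median of 259 RPM, and the 31 cells from 0.0796 to 15246 RPM with a median of 3130 RPM. By number of lineage genes, from 0 to 4, the median Htr3a level was 3767, 2805, 274, 257 and 30.7 RPM, lower with each added gene, although the ranges overlap. At P2 the median was 9.00 RPM in the 11 cells with at least 2 genes and 1685 RPM in the other 55. The E18 order was not kept there, with 0.619, 16.5 and 330 RPM for 2, 3 and 4 genes, in 7, 3 and 1 cells. At P5 the median was 572 RPM in the 57 cells with no gene and 1131 RPM in the 18 cells with 1.

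Genes that act downstream of Lhx6 or Nkx2-1, or mark migrating MGE-derived INs, went the other way in the E18 cells. Nxph1, a secreted synaptic ligand, was expressed in 35 of 51 cells with at least 2 lineage genes (68.6%, 54.1 to 80.9) against 5 of 31 (16.1%, 5.45 to 33.7). Cux2, a homeodomain factor, was expressed in 48 (94.1%, 83.8 to 98.8) against 15 (48.4%, 30.1 to 66.9), and Maf, a leucine zipper factor of MGE-derived INs, in 48 (94.1%, 83.8 to 98.8) against 21 (67.7%, 48.6 to 83.3). None of these 3 pairs of intervals overlaps, by a narrow margin for Maf. The paper names Maf beside Prox1 and Nr2f2 among the CGE-enriched factors of its type 2 and 3 cells, so Maf is not particular to the MGE lineage. The chemokine receptor genes Ackr3 and Cxcr4 were in 14 against 2 and in 11 against 4 cells, and the peptide Npy in 13 against 2, with overlapping intervals. Erbb4 and Zeb2, which INs of several origins use, stood in 38 and 44 against 21 and 22 cells.

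**Figure D4:**
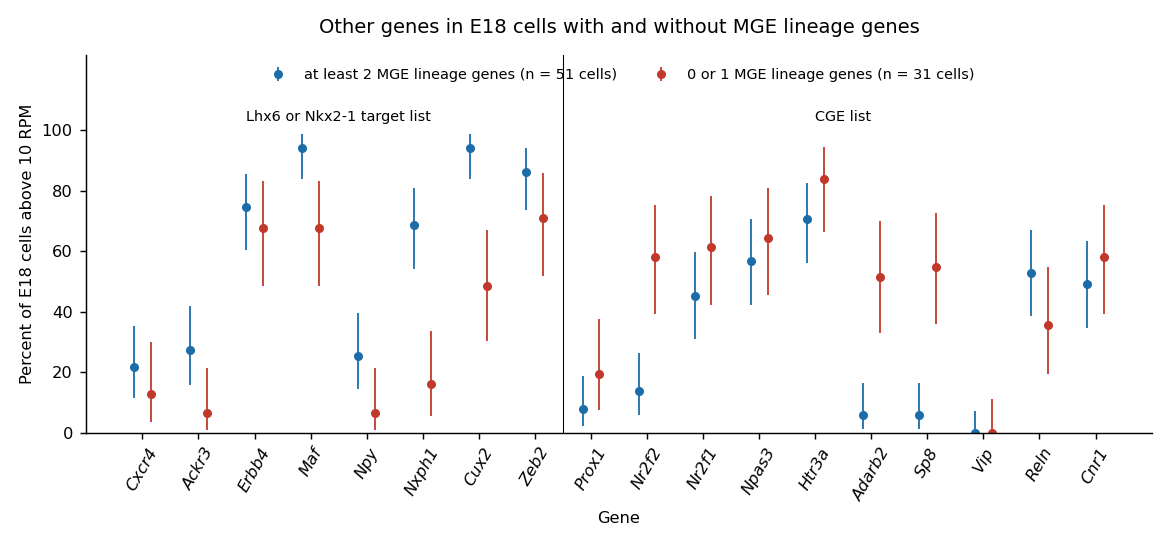
Percent of E18 cells above 10 RPM, with exact 95% binomial intervals, for 8 genes of the Lhx6 or Nkx2-1 target list and the 10 genes of the CGE list, in the 51 cells with at least 2 MGE lineage genes and in the other 31. Nxph1, Cux2 and Maf are separated upward, and Nr2f2, Adarb2 and Sp8 downward.

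The P2 cells repeated part of this pattern with smaller numbers. Of the 11 with at least 2 lineage genes, 11 expressed Maf and 6 Nxph1, against 35 and 8 of the other 55, with overlapping intervals for both. Adarb2 was in 2 of 11 (18.2%, 2.28 to 51.8) against 43 of 55 (78.2%, 64.99 to 88.2), with intervals that do not overlap. Nr2f2 was in 3 against 34 cells and Sp8 in 3 against 39, with overlapping intervals for both.

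Both sets of E18 cells had the general IN genes. At least 1 of Dlx1, Dlx2, Dlx5, Dlx6, Gad1 and Gad2 was above 10 RPM in 50 of 51 and 28 of 31 cells. Depth was alike, with a median of 9446642 against 9669745 mapped read pairs and of 2462 against 2529 genes above 10 RPM. At least 1 of 7 excitatory neuron genes was above 10 RPM in 8 of 51 cells, with a summed level of 0 to 1470 RPM, and in 8 of 31, with 0 to 1739 RPM. Without the 16 E18 cells that carried such a gene, an alternative chosen after seeing the data, 43 of 66 had at least 2 lineage genes (65.2%). Radial glia or astrocyte genes passed 10 RPM in 7 against 3 cells, oligodendrocyte lineage genes in 6 against 0, which was Mbp in each, and cell cycle genes in 24 against 11. Microglial genes passed it in 0 against 2 cells, endothelial genes in 0 against 2 and the erythroid gene Alas2 in 3 against 0. Genes of the olfactory bulb lineage (Meis2, Etv1, Pbx3, Foxp2 and Tshz1) passed it in 23 against 20. The part of these cells in the differences was not tested. The hemoglobin genes Hbb-bs, Hbb-bt, Hba-a1 and Hba-a2 and the microglial genes C1qb, C1qc and Aif1 had 0 read pairs at E18. Of the genes that mark preoptic or cholinergic MGE cells, none of Nkx6-2, Isl1, Gbx1, Gbx2, Zic1, Hmx3, Chat and Slc18a3 passed 10 RPM in any E18 cell, the side of the lineage to which Lhx8 belongs.

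Lists of related genes, and of other cell types, are given beside the members as counts. From E18 to P5, 5 of the 10 genes of the Lhx6 or Nkx2-1 target list were lower past 2-fold and none higher, where 24.1% of all genes were lower, among them with ratios of -2.97 for Cux2, -2.71 for Ackr3, -2.41 for Nxph1 and -1.06 for Maf. The P5 level of Ackr3, 7.04 RPM, came from a single cell at 476 RPM and was 0.00576 RPM without it. Cxcr4, Npy, Erbb4 and Zeb2 were within 2-fold. The list's median was -0.76, against -0.16 over all genes. Of 9 genes tied to Sst cells, 8 entered and 5 were lower past 2-fold, against the same 24.1% of all genes. Of these, Calb1, a calcium-binding protein, had a ratio of -2.40, and Nos1, the neuronal nitric oxide synthase, went from 18.5 RPM to 0.567 RPM. Tac1, which encodes tachykinin peptides, stood at 18.1 RPM, Cort, the somatostatin-like cortistatin, at 3.34 RPM and Crhbp at 2.04 RPM at E18, and all 3 had 0 read pairs at P5. Nos1, Tac1, Cort and Crhbp entered through E18 alone, and Crhbp through a single cell, as it was at 0.0526 RPM without the highest one. Calb1 at P5 also rested on a single cell. Chodl was higher, at 1.66, although its P5 level of 12.6 RPM was 3.79 RPM without the highest cell and its E18 level of 3.29 RPM was 1.81 RPM. Of 7 genes tied to Pvalb cells, 5 entered and 3 were lower. Kcnc2, a fast potassium channel, stood at -1.90, and Rbp4 (1.36 RPM at E18) and Pthlh (1.75 RPM at E18) each entered through a single E18 cell and so had to be lower. Kcnc1 was higher, at 1.17. Of 6 hedgehog pathway genes, Shh and Gli1 were under 1 RPM at both ages. Ptch1, the hedgehog receptor, was at 3.97 RPM at E18 and 18.7 RPM at P5, and at 7.48 RPM there without its highest cell. Smo, which entered through E18 alone, was at 3.39 RPM at E18 and 0.151 RPM at P5, and at 1.94 and 0.0388 RPM without the highest cell of each age. Gli2 at E18 (3.38 RPM) and Gli3 at P5 (6.82 RPM) each came from a single cell, without which they were at 0.126 and 0.00724 RPM. Of the 10 CGE genes, none was lower past 2-fold and 6 were higher, where 16.9% of all genes were higher past 2-fold. Among the 6 were Sp8 at 2.76, Prox1 at 1.76 and Adarb2 at 1.30. Vip entered through P5 alone (29.6 RPM, and 7.73 RPM without its highest cell) and so had to differ. The paper counts Sp8 with factors of the lateral ganglionic eminence that are enriched in type 1 cells, so its higher level is not particular to CGE cells.

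Markers of other cell types also differed between E18 and P5, where 24.1% of all genes were lower and 16.9% higher past 2-fold. All 6 excitatory neuron genes that entered, of 7, were lower past 2-fold, among them Neurod6 at 102.2 RPM in E18 and 0.0199 RPM in P5 cells. All 5 astrocyte or radial glia genes that entered, of 6, were higher, among them Slc1a3, a glutamate transporter, at 39.1 and 258.8 RPM and above 10 RPM in 8 of 82 and 14 of 75 cells. Of the 6 oligodendrocyte lineage genes 5 were higher, among them Pdgfra, above 10 RPM in 2 P5 cells and in no E18 cell. Of these genes, 4 of the excitatory, 3 of the astrocyte and all 5 higher oligodendrocyte genes reached 1 RPM at a single age and so had to differ. All 5 olfactory bulb lineage genes were higher. Without cells that carried an excitatory gene, at least 2 MGE lineage genes stood in 43 of 66 E18 cells and 0 of 73 P5 cells. The part of glial cells in the differences between ages was not tested.

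The column labels carry set and pool codes whose meaning (chip, flow cell or index pool) is not stated, and 3 of the pool codes hold both E18 and P5 cells. Summed over these, Lhx6 was expressed in 9 of 21 E18 cells (42.9%, 21.8 to 65.98) and 0 of 23 P5 cells, and Sst in 16 of 21 (76.2%, 52.8 to 91.8) and 0 of 23. At least 2 genes were found in 13 of 21 E18 cells (61.9%, 38.4 to 81.9) and 0 of 23 P5 cells. The pools are unbalanced, with 1 E18 and 15 P5 cells, 9 and 3, and 11 and 5, so most of these P5 cells share a pool with a single E18 cell. The E18 share with at least 2 genes was 31 of 48 in set 383, 4 of 9 in set 392 and 16 of 25 in set 393, against 0 of 15, 0 of 17 and 0 of 43 at P5. Among the separate genes at E18, Lhx6 stood in 29 of 48 cells in set 383 (60.4%, 45.3 to 74.2), 3 of 9 in set 392 and 8 of 25 in set 393 (32%, 14.9 to 53.5), and Sst in 27, 6 and 19 of them, with overlapping intervals.

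Within sets 383, 392 and 393, the P5 to E18 ratio was -7.33, -5.48 and -2.70 for Lhx6, -8.09, -9.28 and -8.31 for Sst and -2.03, -5.86 and -5.74 for Sox6, past 2-fold in each. Satb1 was at -0.72, within 2-fold, in set 383 and at -4.22 and -2.53 in sets 392 and 393. All 3 Lhx6 cells of P5 belonged to set 393.

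**Figure D5:**
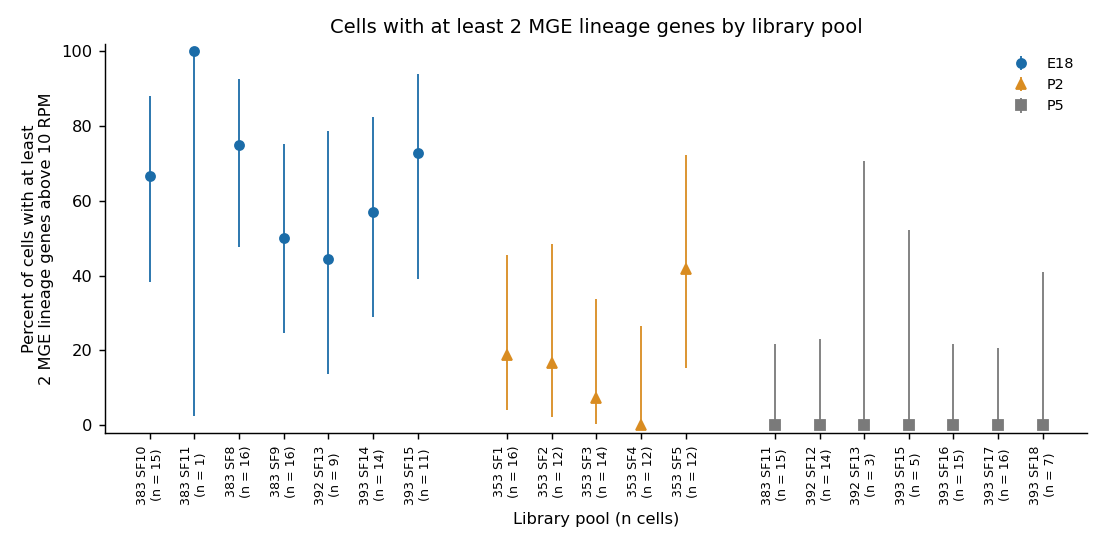
Percent of cells with at least 2 MGE lineage genes above 10 RPM in each library pool, with exact 95% binomial intervals, for E18, P2 and P5 (number of cells under each pool). Pools of E18 lie between 44.4% and 75%, leaving out a pool with 1 cell, pools of P2 between 0% and 41.7%, and all pools of P5 are at 0%.

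The genes whose levels went most with a member over the 82 E18 cells, by Pearson correlation of log2(RPM + 1) among the 9278 genes that passed 10 RPM in over 5% of them, are given as a description, since the cells share libraries and depth. For Lhx6 they were Gria1, an AMPA receptor subunit (r = 0.57), Nxph1 (0.54), Maf (0.54), Cbfa2t3, a transcriptional corepressor (0.47), and Dgkg, a diacylglycerol kinase (0.46). For Sst they included Dgkg (0.57), Fstl5 (0.46), Cbfa2t3 (0.46) and Spock1 (0.44), so Dgkg and Cbfa2t3 stood in both sets. For Sox6 they were Ednrb (0.51), Mkx (0.47), Dgkg (0.43), Fra10ac1 (0.41) and Arhgef12 (0.40), of which Fra10ac1 was above 10 RPM in only 5 E18 cells. For Satb1 they were Snrpa (0.46), Gm14391 (0.45), Cacng3 (0.42), Chrm3 (0.41) and Eif1a (0.40), of which Gm14391 was above 10 RPM in only 5 cells. Between members, r was 0.37 for Sst with Sox6, 0.35 for Lhx6 with Sst, 0.35 for Lhx6 with Satb1, 0.27 for Sst with Satb1, 0.17 for Lhx6 with Sox6 and 0.12 for Sox6 with Satb1. Over the 66 P2 cells, which did not choose these genes, most of the named genes had a lower r. Gria1 stood at 0.58, Maf at 0.47 and Nxph1 at 0.38 with Lhx6, and Cbfa2t3 at 0.49 with Sst and Ednrb at 0.41 with Sox6. Cbfa2t3 and Dgkg stood at 0.15 and 0.22 with Lhx6, Spock1 and Fstl5 at 0.10 and 0.02 with Sst, Mkx and Fra10ac1 at 0.16 and -0.07 with Sox6, and none of the 5 Satb1 genes was above 0.16.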

How the data were processed

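Single Htr3a-GFP+ cells were sorted from pooled cortices of each age, captured on microfluidic chips and amplified with no molecular identifiers before paired-end sequencing. Cortices of all ages were dissociated with Pronase, those of P5 after dissection in artificial cerebrospinal fluid and at another temperature and time, so dissociation and age cannot be told apart between E18 and P5. Per the labels and the methods, the authors aligned with TopHat2 to GRCm38, counted exonic pairs with HTSeq 0.6.1 and deposited raw counts per gene for each cell, with a coefficient that gives RPM, t-SNE coordinates and types. Whether counting used strand is not given in the sources used here.

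Gene names came from GENCODE M21, which named 42462 of 43629 identifiers (the rest held 0.313% of read pairs). The members and lists were chosen with earlier results of these data known. RPM was the count times the coefficient. With 1 pool per age, no test was made. Folds between ages compare summed levels on the log2 scale after adding 1 RPM, called past 2-fold, over genes with at least 1 RPM in either group. Named genes were the members, list genes that stand with a result, and the 5 genes most correlated with each member above 10 RPM in at least 8 E18 cells. Lists covered hedgehog, Lhx6 or Nkx2-1 target, Sst cell, Pvalb cell, cholinergic, CGE, olfactory bulb, general IN, excitatory, glial, endothelial, erythrocyte and cell cycle genes. Alternatives changed the threshold, depth, scaling, added RPM, cells and libraries. Promoter sequences are RefSeq (GRCm38.p6), found for all 7 members. Some genes of the lists and correlations are not reported here. No doublets were called. Steps were tested on simulated Poisson counts with a shared rate per gene in all cells of an age. Such counts lack the spread between cells seen in the data, so they check the calculation only. Software was R 4.3.3 with edgeR 4.0.16 (for scaling factors), and scipy 1.17.1, pandas 2.3.3, matplotlib 3.10.9 and numpy 2.4.6 under Python 3.11.15.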

Additional observations from a re-analysis of the deposited data

How the results depend on the processing

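The main shares and folds gave the same reading in 81 alternatives, a moved value in 20 and a weaker call in 1. Counting cells with at least 1 read pair moved the share to 96.3% for Lhx6 at E18, 89.3% for Lhx6 at P5, 84.1% for Sst at E18 and 9.33% for Sst at P5, and that of cells with at least 2 genes to 98.8% at E18 and 81.3% at P5. Above 1 RPM, Lhx6 stood in 72% at E18 and 48% at P5, and at least 2 genes in 78.05% at E18 and 26.7% at P5, so the difference between these ages was smaller there. With P2 at 34.8% for Lhx6 and 21.2% for at least 2 genes, P2 was then below P5, and most cells of every age held at least 1 read pair of Lhx6. Above 50 RPM, Sst at E18 was 51.2%. Within library sets 383, 392 and 393, Lhx6 at E18 was 60.4%, 33.3% and 32%, and at P5 it was 0% in sets 383 and 392. Sst at E18 was 76% in set 393 and 76.2% in the pools with both ages, where Lhx6 at P5 was 0%. At least 2 genes stood in 44.4% of E18 cells of set 392, with 9 cells. Satb1 in set 383 was within 2-fold (-0.72). Among the other results, 476 of 587 alternatives gave the same reading. The ratio of Sox6 in P5 type 1 over the other types changed from -2.11 to 0.0825 without the highest cell of each side. Of the 5 genes named for each member, 4 for Lhx6, 2 for Sst, 2 for Satb1 and 1 for Sox6 stayed among the 5 highest with Spearman correlation, and 3, 2, 1 and 2 over all cells. Cells thinned to 1596087 read pairs on genes and scaling to the total on genes changed no main share or call. A count of 0 in 75 cells allows a share of up to 4% (3 of 75).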

Other observations

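Nfib, a nuclear factor I transcription factor that drives maturation of neurons and glia, was the gene most opposed to Lhx6 (r = -0.55), Sst (-0.55) and Sox6 (-0.45) over the 82 E18 cells, among 9278 genes compared. It is in no list and was chosen after its values were seen. It was above 10 RPM in 24 of the 51 E18 cells with at least 2 MGE lineage genes (47.1%, 95% interval 32.9 to 61.5) and in 30 of the other 31 (96.8%, 83.3 to 99.9), with a median of 1.20 RPM against 2151 RPM. Its relative Nfia stood in 15 (29.4%, 17.5 to 43.8) against 26 cells (83.9%, 66.3 to 94.5).

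The P2 cells, which did not choose it, gave r = -0.71 for Nfib with Lhx6, -0.61 with Sox6 and -0.41 with Sst. Nfib was above 10 RPM in 6 of the 11 P2 cells with at least 2 lineage genes (54.5%, 23.4 to 83.3) and in 52 of the other 55 (94.5%, 84.9 to 98.9), where the intervals do not overlap. Nfia stood in 3 of the 11 (27.3%, 6.02 to 60.97) and 40 of the 55 (72.7%, 59.04 to 83.9), with overlapping intervals, and its r with Lhx6 was -0.53 at E18 and -0.26 at P2. At P5 all 75 cells were above 10 RPM for Nfib, those with 1 lineage gene and those with none alike.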
